A study of Mus musculus with 8 samples.

Results

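Liver RNA of 4 male C57BL/6 mice on a high-fat diet was compared across feeding time, 2 mice at 9 months against 2 at 3 months, with 1 array per mouse. These are 4 of the 8 arrays of the study and were chosen by their titles alone. The high-fat diet (HFD, 58% fat by the labels, 25.5% carbohydrate, 16.4% protein, 5.2 kcal/g) and a normal diet (ND, 4.8% fat, 50.21% carbohydrate, 20.78% protein, 3.8 kcal/g) were both eaten freely. All mice were bought at 5 weeks of age and differed by no allele or agent in the labels, and the other 4 arrays hold ND livers at 3 and 9 months, 2 mice each. The mice fed for 9 months were also 6 months older than those fed for 3 months, so longer feeding and greater age cannot be told apart. All 4 HFD samples shared 1 slide, with row 1 holding the shorter feeding time and row 2 the longer one, and a row effect and a time effect cannot be told apart either. Throughout, a level is the log2 processed signal of a probe minus the 75th percentile of its array, and a difference is the 9-month mean minus the 3-month mean on that log2 scale. Standard errors (SE) and adjusted p-values come from 1 limma fit over all 8 arrays, with n = 2 mice in each group.

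Prolonged high-fat feeding loads hepatocytes with triglyceride and is the usual way to bring about fatty liver in this strain. In hepatocytes the transcription factors SREBP1 and SREBP2 switch on fatty acid and cholesterol synthesis, and PPARα switches on fatty acid oxidation. Macrophages that take up lipid around damaged hepatocytes make a set of genes named after TREM2, a lipid-sensing surface receptor. Adult hepatocytes divide rarely, so genes of DNA replication are low in resting liver.

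The 75th percentile of the intensity was 368, 428 and 426 on the first 3 HFD arrays and 185 on 9 months replicate 2, the dimmest array, where 40.6% of spots were well above background against 43.0% to 47.3% on the other HFD arrays. The arrays of a pair differed by a median of 0.25 per feature at 3 months and 0.43 at 9 months. The ND pairs differed less, by 0.14 and 0.24. Replicate spots had an SD of 0.19 to 0.21 on the HFD arrays and 0.10 to 0.11 on the ND arrays. The fit shares 1 spread over all 4 groups, so the SE and p-values of HFD differences also draw on the quieter ND arrays. In a limma fit of the HFD arrays alone, with fewer arrays to estimate the spread, the smallest adjusted p was 0.383. Hepatocyte markers were well above background on all 4 HFD arrays for 25 of 25 genes, with a list median of 7.65 to 7.86, and of 27 markers of pancreas, gut, muscle and blood 10 were measured at all. In whole tissue, fewer cells of a type and less RNA per cell cannot be told apart.

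Of 20165 features tested, 2 passed an adjusted p of 0.05, which is 0.00992% of all: 1 was higher (0.00496%) and 1 was lower (0.00496%) at 9 months. Wfdc13, a whey acidic protein domain gene, fell at 9 months. Its levels were 1.11 and 0.93 at 3 months and -2.31 and -2.70 at 9 months, a difference of -3.53 ± 0.21 (SE; adjusted p = 0.0306). The arrays of the 2 times did not overlap, and the probe was well above background on both 3-month arrays and on 1 of the 9-month arrays. A feature without a gene symbol, XM_001476221, rose from -5.17 and -4.67 to -0.59 and -0.97 (adjusted p = 0.0425). It was not well above background on either 3-month array, so its rise is a lower bound: it was at least 6.97-fold higher, counted against the higher of its own signal and the lowest signal well above background on each dim array. Leaving out 9 months replicate 1 raised the number of features past the threshold to 746 higher and 1187 lower, and leaving out 9 months replicate 2 gave 5 higher and 13 lower.

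Wfdc13 passed under 7 of 11 alternative settings and XM_001476221 under 6 of 11. No member of any gene list below passed.

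An unadjusted p under 0.05 was reached by 3120 features, 15.5% of all. At an adjusted p under 0.1 there were 132 features, 0.655% of all, of which 50 were higher (0.248%) and 82 lower (0.407%) at 9 months. Because so few features passed, gene groups are described below by an untested count. A gene enters it when both 9-month arrays lie on the same side of both 3-month arrays and the difference is at least 1 in size. Over all features 919 lay that far above (4.56%) and 864 that far below (4.28%), with a median difference of -0.0043 over all features. Without the size limit, the arrays of the 2 times did not overlap in 44.3% of features, and 49.6% of differences were above 0 and 50.4% below. An exact permutation test of 2 mice against 2 can give no two-sided p under 0.333, so no single gene can pass one. The gene lists hold known members of each pathway or cell type, and the counts are read against the 4.56% and 4.28% over all features. Leaving out 1 HFD array moved a count by over 1.5 times, or to or from 0, in 37 of 39 lists for at least 1 array. It did so in 31 lists for 9 months replicate 1, 25 for 3 months replicate 2, 22 for 9 months replicate 2 and 18 for 3 months replicate 1.

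**Figure D1:**
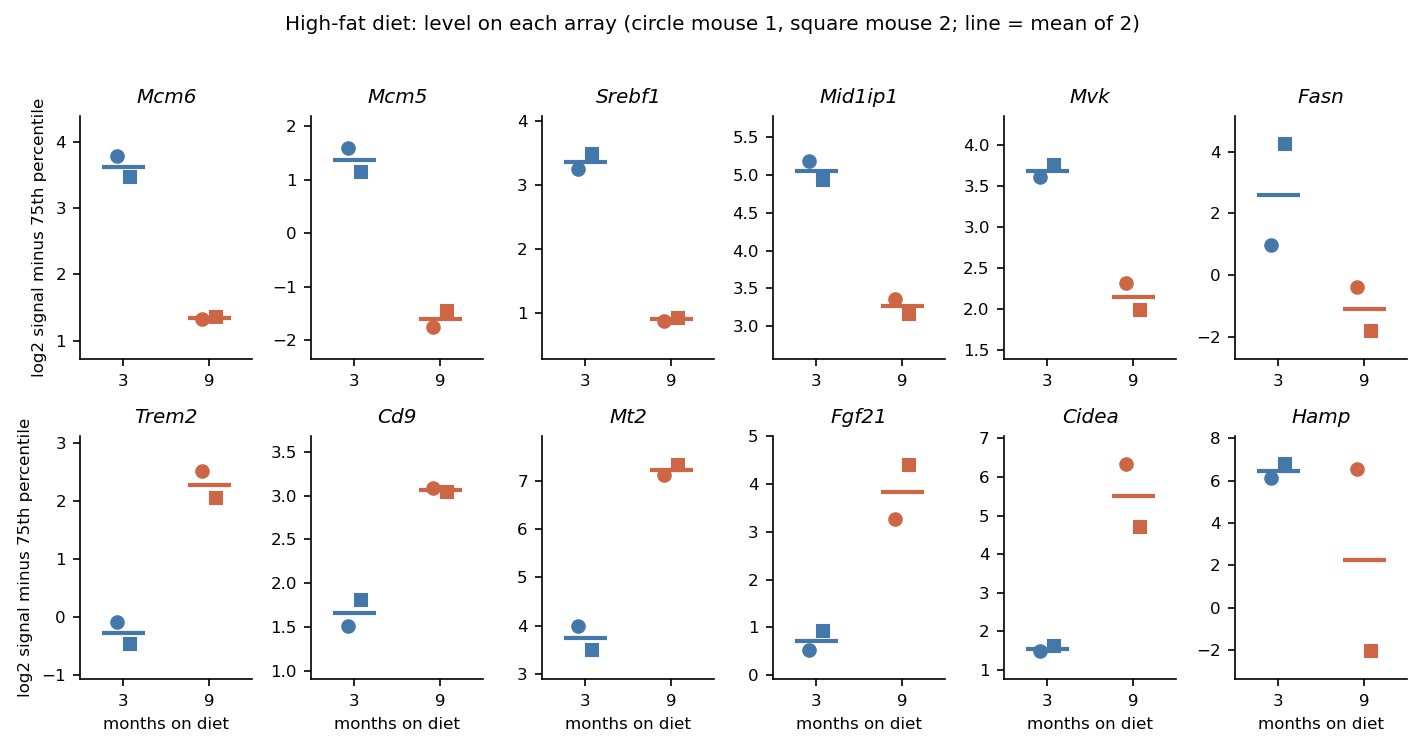
Level of 12 genes on each of the 4 HFD arrays (vertical axis, log2 signal minus the array's 75th percentile; horizontal axis, months on the diet); circles are mouse 1, squares mouse 2 and lines the mean of 2. Mcm6, Mcm5, Srebf1, Mid1ip1 and Mvk lie close together within each time and apart between times, while Hamp is low on 1 array alone, at -2.03.

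Genes of DNA replication were lower at 9 months. Of 33 cell cycle genes 27 were measured, and 15 of them were lower by at least 1 with no overlap, against 4.28% of all features, with none higher. None passed an adjusted p of 0.05, and 6 passed 0.1. The median difference over the 27 genes was -1.06. Of the MCM2-7 complex, the helicase that opens DNA at replication origins, Mcm6 read 3.79 and 3.46 at 3 months and 1.32 and 1.36 at 9 months. For Mcm6 this is a difference of -2.28 ± 0.20 or 4.87-fold (adjusted p = 0.0555). Mcm5 read 1.59 and 1.15 at 3 months and -1.75 and -1.45 at 9 months, 7.84-fold lower (adjusted p = 0.0555). Mcm3 was 2.55 and 2.29 and then 0.77 and 0.66, with an adjusted p of 0.0589. In all 3 genes every 9-month array lay below every 3-month array. Mcm4 (-1.79 ± 0.27) and Mcm2 (-1.43 ± 0.24) differed the same way, while Mcm7, the remaining subunit, stood at 2.95 and 2.48 against 2.11 and 2.54 and overlapped.

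The promoters of the 2 MCM genes with the smallest p are shown because they hold words bound by E2F factors, which switch on genes for DNA synthesis, and the CCAAT word bound by NF-Y. The 250 bases before the RefSeq start (GRCm38.p6) were searched on both strands for TTTCCCGC, TTTCGCGC, TTTGCCGC and TTTGGCGC as E2F words and for CCAAT. The Mcm6 window is chr1:128359706-128359955 on the minus strand and the Mcm5 window is chr8:75109259-75109508 on the plus strand. Capitals mark the matches, some of which overlap each other.
Mcm6: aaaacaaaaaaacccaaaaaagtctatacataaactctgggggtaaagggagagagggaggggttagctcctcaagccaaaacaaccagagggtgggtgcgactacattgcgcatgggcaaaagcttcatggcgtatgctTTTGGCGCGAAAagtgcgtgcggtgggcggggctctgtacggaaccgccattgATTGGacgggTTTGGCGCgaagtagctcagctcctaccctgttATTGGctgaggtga
Mcm5: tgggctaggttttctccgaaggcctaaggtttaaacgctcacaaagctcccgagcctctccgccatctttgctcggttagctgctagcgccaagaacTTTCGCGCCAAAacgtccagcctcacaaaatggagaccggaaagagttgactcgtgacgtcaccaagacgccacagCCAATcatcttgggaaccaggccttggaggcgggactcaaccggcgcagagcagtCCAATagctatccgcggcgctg
Mcm6 holds E2F words starting 110, 106 and 47 bases before the start and Mcm5 at 153 and 149. Of 21 measured cell cycle genes with a window in the table, 4 held an E2F word (Cdk1, Mcm5, Mcm6 and Mcm7), while 2.16% of all 27025 genes with a window held one. CCAAT was in 15 of the 21 (71.4%) against 37.5% of all genes. All genes with a window include genes not measured in these livers, so the shares compare unlike sets. A match describes the letters only. Mcm7 carries an E2F word and its arrays overlapped.

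Gins1, a subunit of the GINS complex that works with the MCM ring, read 1.17 and 0.88 and then -0.20 and -0.60 (-1.42 ± 0.22, adjusted p = 0.0927). Timeless, which guards replication forks and is not on the list but is among the 10 lower genes with the smallest p, went from 1.07 and 0.98 to -0.57 and -0.70, a difference of -1.66 ± 0.21 (adjusted p = 0.0663). Rrm1, the large subunit of ribonucleotide reductase, differed by -1.06 ± 0.19. Among genes of mitosis, Cdc20, an activator of the anaphase-promoting complex, read 0.28 and -0.17 against -1.59 and -1.51 (adjusted p = 0.089), and the mitotic kinase gene Aurka differed by -1.74 ± 0.38, with 1 of its 9-month arrays well above background. Ccnd1, cyclin D1, which drives entry into the cycle, was 3.98 and 3.72 at 3 months and 2.74 and 1.76 at 9 months. None of these pairs overlapped. Among the genes whose arrays overlapped were Mki67, the common proliferation marker (-0.94 and -1.18 against -2.17 and -0.65), Tyms and Foxm1. The list median stayed between -1.27 and -0.82 under every alternative run, and it was -0.84 on ND. The untested count of lower genes moved more. It was 9 in the authors' value table, 10 under normexp background correction, 12 with a floor on dim values and 19 with scaling to the array median. Among probes well above background on all 8 arrays it was 10 of 20.

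Cholesterol synthesis was lower at 9 months with a wide spread between the 3-month mice. All 25 listed genes were measured and all 25 differences were below 0. Of these, 14 were lower by at least 1 with no overlap, 0 passed the adjusted test, and the median difference was -1.53. Mvk, mevalonate kinase, read 3.61 and 3.75 at 3 months and 2.31 and 1.99 at 9 months (-1.53 ± 0.29, adjusted p = 0.141), and its mice agree closely at each time. Dhcr7, the last step to cholesterol, read 1.40 and 2.90 and then 0.29 and -0.54. In Sqle, squalene epoxidase, the 3-month mice read 0.92 and 4.31 and the 9-month mice 0.46 and 1.23, so the groups overlapped. Mouse 2 at 3 months was the high one in most of these genes: the list median was 2.76 and 3.90 on the 3-month arrays against 2.37 and 2.14 on the 9-month arrays. Without 3 months replicate 2 the median difference was -0.63 with 8 genes lower by the count, and without 3 months replicate 1 it was -1.97 with 22.

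**Figure D2:**
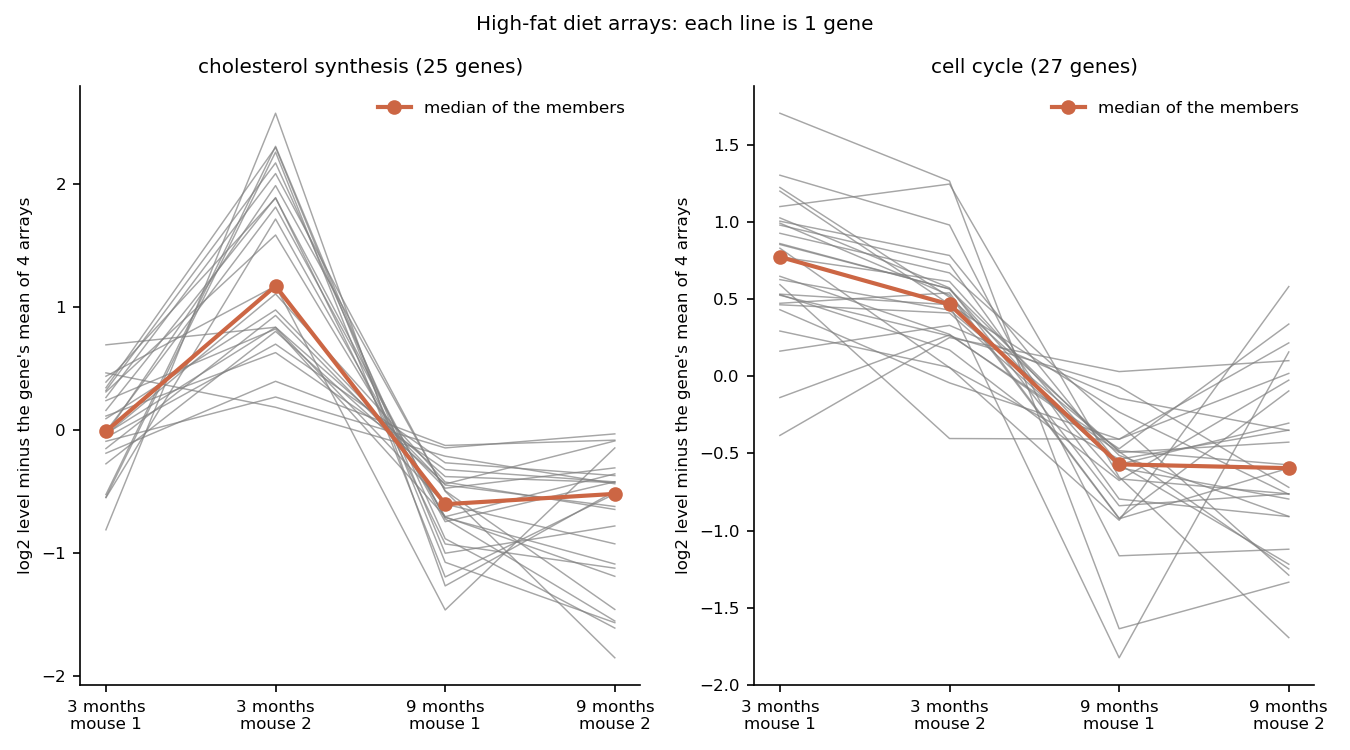
Levels of the 25 measured cholesterol synthesis genes (left) and 27 cell cycle genes (right) on the 4 HFD arrays, each line 1 gene after its own mean over the arrays was taken off (log2 scale), with the median in colour. On the left 3 months mouse 2 stands above 3 months mouse 1, and on the right both 3-month mice stand above both 9-month mice at the median.

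Of the cholesterol genes, Mvk and Hmgcs1 are shown by promoter, Mvk for the smallest p and Hmgcs1 as the 1 gene of the list whose window holds the sterol regulatory word TCACNCCAC, to which SREBPs bind. The Mvk window is chr5:114444019-114444268 and the Hmgcs1 window chr13:119690101-119690350, both on the plus strand in GRCm38.p6. Capitals mark CCAAT on either strand and, in Hmgcs1, the sterol regulatory word.
Mvk: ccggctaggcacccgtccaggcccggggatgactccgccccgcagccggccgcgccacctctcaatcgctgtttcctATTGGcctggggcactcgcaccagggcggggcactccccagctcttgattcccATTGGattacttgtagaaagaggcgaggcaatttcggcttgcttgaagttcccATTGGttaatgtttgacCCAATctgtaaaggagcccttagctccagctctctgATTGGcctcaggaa
Hmgcs1: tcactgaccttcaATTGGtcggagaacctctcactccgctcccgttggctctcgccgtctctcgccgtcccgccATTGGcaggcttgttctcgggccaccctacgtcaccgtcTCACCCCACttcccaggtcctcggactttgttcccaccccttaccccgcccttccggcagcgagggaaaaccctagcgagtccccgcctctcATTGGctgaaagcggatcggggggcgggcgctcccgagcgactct
CCAAT was found in 16 of 17 measured cholesterol synthesis genes with a window (94.1%) against 37.5% of all genes with one, measured or not. TCACNCCAC was in 1 of the 17 (5.88%) against 1.22%. Hmgcs1, the enzyme that makes HMG-CoA, carries that word 137 bases before its start. Its levels were 6.08 and 6.66 at 3 months and 5.13 and 5.48 at 9 months, without overlap (-1.06 ± 0.34).

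Fatty acid synthesis followed the same order. Of 25 listed genes 24 were measured, 10 were lower by at least 1 with no overlap, none was higher by that count, and 22 of 24 differences were below 0. The median difference was -0.90. Srebf1, which encodes SREBP1, the main activator of this pathway, read 3.25 and 3.49 at 3 months and 0.87 and 0.92 at 9 months, 5.56-fold lower (adjusted p = 0.0558). Mid1ip1, an activator of acetyl-CoA carboxylase that is not on the list, read 5.17 and 4.93 and then 3.36 and 3.17 (-1.79 ± 0.19, adjusted p = 0.0555). Both genes differed little between mice of the same time. Fasn, fatty acid synthase, read 0.97 and 4.25 at 3 months and -0.40 and -1.81 at 9 months, a difference of -3.72 ± 1.02 (adjusted p = 0.215). The 3-month mice of Fasn are farther apart than the nearest mice of the 2 times. Tkt, transketolase of the pentose phosphate pathway, differed by -1.39 ± 0.30 and Acly, which makes cytosolic acetyl-CoA, by -1.83 ± 0.54. Scd1, the main desaturase, overlapped, at 6.51 and 8.27 against 7.45 and 5.65. Without 3 months replicate 2 the list median was -0.35 with 4 genes lower by the count, and without 3 months replicate 1 it was -1.75 with 16.

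Lipid droplet and fatty acid uptake genes were higher for a minority. Of 25 measured genes of 26, 6 were higher by at least 1 with no overlap, against 4.56% of all features, and none was lower by that count. The median difference was 0.29. With scaling to the array median, 2 were higher and 1 lower, with a median of 0.094, and without 3 months replicate 1 the median was 0.14. Cidea, a droplet fusion protein, had the largest difference: 1.49 and 1.62 at 3 months, 6.34 and 4.69 at 9 months (3.96 ± 1.27, adjusted p = 0.255). Its groups did not overlap. The SE is pooled over all 4 groups, and the ND mice at 9 months read 1.24 and -2.86. Plin4 (2.88 and 2.34, then 4.22 and 4.35) and Plin5 (5.69 and 5.01, then 6.42 and 6.30), perilipins of the droplet surface, did not overlap either. Fitm1, which helps droplets bud, differed the other way, by -0.99 ± 0.31. Pparg, a driver of droplet genes in fatty liver, was 3.48 and 3.65 against 3.56 and 3.53, and the fatty acid carrier gene Cd36 also overlapped. Cidea, Fabp4 and Lpl are also adipocyte markers. Of 17 adipocyte markers 11 were measured. By the untested count 4 were higher, namely Cidea, Cidec, Fabp4 and Lpl, and 2 were lower, namely Cfd (adipsin) and Slc2a4 (the insulin-responsive glucose carrier). The median level of the 11 was 2.97 and 3.65 at 3 months and 3.56 and 4.21 at 9 months. Their signals scaled to the 75th percentile summed to 985 and 922 and then 889 and 785, a sum in which Car3 is the brightest probe. The part of adipocytes in the droplet gene values was not tested. Adipoq, Lep, Plin1, Retn and Ucp1 were among the 6 that did not pass the filter on dim probes.

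Fatty acid oxidation genes had a median difference of -0.10 over 33 of 33 genes, with 2 higher by the untested count and 0 lower. The sign of that median turned under normexp background correction (0.0024) and without 9 months replicate 2 (0.010). The 2 genes were Fgf21, a hormone secreted by liver under PPARα and stress signals, and Cyp4a14, a fatty acid ω-hydroxylase. Fgf21 read 0.52 and 0.93 at 3 months and 3.27 and 4.41 at 9 months, 8.65-fold higher (adjusted p = 0.141). Cyp4a14 read 8.21 and 7.98 and then 8.82 and 9.71. Hadhb, a subunit of the mitochondrial trifunctional protein, was 0.64 ± 0.18 higher, and Ppara itself was 6.70 and 6.71 against 6.44 and 6.52.

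Among lipoprotein genes 2 were higher and 2 lower by the count of 22 measured. Apoa4, an apolipoprotein of triglyceride-rich particles, read 3.39 and 4.19 and then 5.77 and 5.19 (1.69 ± 0.45). Abcg8, a subunit of a sterol exporter into bile, read 0.95 and 0.42 and then -0.39 and -0.52. Of 22 bile acid genes 3 were lower and 1 higher by the count, with Baat, which conjugates bile acids, at 3.00 and 2.94 and then 0.89 and 1.94 (-1.56 ± 0.34, adjusted p = 0.168). Cyp8b1, the sterol 12-hydroxylase, differed by -1.38 ± 0.40, and the bile acid exporter gene Abcc4 by 1.18 ± 0.40. Cyp7a1, the rate-limiting enzyme of bile acid synthesis, overlapped at 1.22 and 3.14 against 2.06 and 0.84.

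Genes of lipid-associated macrophages were higher at 9 months in 8 of 17 measured genes by the untested count (of 18 listed), with none lower by it, and 2 passed an adjusted p of 0.1. Of the 17 differences 12 were above 0 and 5 below. The median difference was 0.59. It was 1.18 without 3 months replicate 2, 1.09 without 9 months replicate 1 and 0.46 without 9 months replicate 2, with 6 to 9 genes higher by the count. Trem2 read -0.10 and -0.47 at 3 months and 2.52 and 2.04 at 9 months, 5.91-fold higher (adjusted p = 0.0733). The tetraspanin gene Cd9 read 1.51 and 1.81 and then 3.08 and 3.04 (1.40 ± 0.21, adjusted p = 0.0927). Cd63, another tetraspanin, of late endosomes, read 2.16 and 3.02 and then 4.61 and 4.30 (adjusted p = 0.11). In all 3 the mice of 9 months stood above those of 3 months. Gpnmb, a glycoprotein of lipid-laden macrophages, was not well above background at 3 months and read 0.18 and -0.71 at 9 months, at least 9.84-fold higher. Lgals3, galectin-3, differed by 1.92 ± 0.41 and Itgax, which encodes CD11c, by 1.78 ± 0.49. Cd207, langerin, which is not on the list, read -2.96 and -2.29 and then 0.02 and 0.04, 6.32-fold higher (adjusted p = 0.0618). On ND it was higher at 9 months too, past the threshold (2.37 ± 0.32, adjusted p = 0.0374). Its time effect was 0.29 ± 0.45 higher on HFD than on ND.

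General macrophage and Kupffer cell markers had a larger median difference on ND, 1.65, than on HFD. Their median level on ND was 0.95 and 0.08 at 3 months and 3.07 and 1.26 at 9 months. On HFD 2 of 22 were higher by the count and none lower, with a median difference of 0.42. That median was 0.22 without 3 months replicate 2 and 0.28 without 9 months replicate 2, and 7 genes were higher by the count without 9 months replicate 1. Cd14, the endotoxin co-receptor, was 1.28 ± 0.58 higher and Fcgr1, an Fc receptor, 1.04 ± 0.62 higher. Clec4f, a marker of resident Kupffer cells, overlapped at 3.76 and 3.48 against 3.67 and 3.98. Marco, a scavenger receptor, read 2.74 and 2.19 against 2.36 and 5.58, so 9 months replicate 2 alone was high. The neutrophil list, of which 6 of 14 genes were measured, had 3 higher by the count (S100a9, S100a8 and Retnlg, the last not well above background at 3 months) and 0 without 9 months replicate 2. S100a9, a calprotectin subunit, read 0.41 and 1.11 and then 1.73 and 4.82. Mpo, Prtn3 and Ltf did not pass the filter on dim probes. The median difference of the neutrophil list was 1.18 on HFD and 1.25 on ND. T and NK cell markers (14 of 31 measured) and MHC class II genes (9 of 12) had 0 genes past the count in either direction. For T and NK cells Cd4 differed by -0.81 ± 0.35 and Cd3e overlapped, and for MHC class II Ctss, a protease of antigen processing, differed by 0.84 ± 0.55. Of 14 B and plasma cell genes 1 was higher and 1 lower by the count, with a median difference of 0.31. That median was -0.21 without 3 months replicate 1 and -0.14 without 9 months replicate 2. The lower gene was Cd22, a B cell receptor regulator (-1.03 ± 0.30). Of 8 dendritic cell genes Siglech, a plasmacytoid marker, was the 1 higher (1.47 ± 0.44).

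Chemokines and their kin went both ways. Of 40 listed genes 28 were measured, 6 were higher and 3 lower by the count, and the median difference was 0.38. It was 0.67 without 3 months replicate 2 and 0.19 with scaling to the array median. On ND the list median difference was 0.74. Ccl19, which draws lymphocytes and dendritic cells, read -0.64 and -0.53 at 3 months and -2.53 and -2.08 at 9 months (-1.72 ± 0.22, adjusted p = 0.0671). Another probe of Ccl19 gave a difference of -0.08. Cxcl9, an interferon-γ target that attracts T cells, differed by -1.20 ± 0.27, and Ccl24, an eosinophil attractant, by -1.07 ± 0.25. Above 0 stood Ccl4 (2.17 ± 0.57), and Ccl2, the main attractant of monocytes, differed by 1.12 ± 0.80. Interferon-stimulated genes gave 3 higher and 3 lower of 36, and 0 higher and 5 lower with scaling to the array median. Psmb8, Psmb9 and Tap1, which prepare peptides for MHC class I, differed by -0.81 ± 0.23, -1.01 ± 0.33 and -1.10 ± 0.36, while Oas2, an antiviral enzyme, differed by 0.94 ± 0.32. Ubd, a ubiquitin-like modifier, read 1.42 and 1.37 and then 2.39 and 2.15.

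Of 27 matrix genes 4 were higher by the untested count and none lower. The median difference was -0.08, and it turned to 0.16 without 3 months replicate 2 and 0.095 without 9 months replicate 2. Among the 4 were the macrophage elastase gene Mmp12 (not well above background at 3 months, at least 1.93-fold higher), Timp1 and Thbs1 (thrombospondin 1). Timp1, an inhibitor of matrix proteases, read -1.52 and -1.91 and then 0.05 and -1.05. The fibrillar collagen genes were not among the higher ones: Col1a1 read 1.58 and 1.87 against 1.72 and 0.86 and Col3a1 2.58 and 2.54 against 2.18 and 1.34. Col4a2, of basement membrane, differed by -0.64 ± 0.17. Of 18 stellate cell and fibroblast genes 1 was lower by the count, Mfap4, a microfibril protein (-2.50 ± 0.39, adjusted p = 0.0974), which was well above background on both 3-month arrays and 1 of the 9-month arrays. Of 23 endothelial genes Tek, the angiopoietin receptor, was the 1 lower (-1.06 ± 0.32). Its probe was dim, with 1 of the 9-month arrays well above background, and its difference ran from -1.33 to -0.0985 over the alternative settings. No endothelial gene was lower by the count under normexp, in the authors' value table, with a floor on dim values or without 9 months replicate 2. Of 11 cholangiocyte genes Krt23, a keratin, was the 1 lower, at 4.38 and 3.69 and then 3.01 and -0.35, while Sox9 differed by 0.71 ± 0.21.

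Both measured metallothioneins, which bind zinc and copper, were higher at 9 months and among the 10 genes with the smallest p in that direction. Mt2 read 3.99 and 3.49 at 3 months and 7.13 and 7.34 at 9 months, 11.3-fold higher (adjusted p = 0.0555). Mt1 read 5.29 and 4.97 and then 7.58 and 8.34, 7.13-fold higher (adjusted p = 0.0612). No array overlapped in either gene. Of the 30 measured glutathione and NRF2 genes on whose list they stand, 3 were higher and 2 lower by the count. The third was Cat, catalase, at 4.60 and 3.05 and then 5.66 and 5.45, whose other probe differed by -0.56. Gpx4, which clears lipid peroxides, was 0.66 ± 0.17 higher. The lower genes were the glutathione transferase genes Gstt3 (-1.43 ± 0.41) and Gsta4 (-1.65 ± 0.52).

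Stress response genes were higher for some members. Of 30 genes of the unfolded protein and integrated stress responses 5 were higher by the count and none lower, with a median difference of 0.40. With scaling to the array median 2 were higher and 1 lower. Trib3, a pseudokinase induced by ATF4, read 2.80 and 2.33 and then 3.70 and 3.66 (1.12 ± 0.21, adjusted p = 0.139). The chaperone genes Hspa5 (7.11 and 7.16, then 7.82 and 7.91) and Hyou1 (-0.89 and -1.15, then -0.36 and -0.04) did not overlap. Of 22 p53 targets and senescence genes 4 were higher and none lower by the count. Cdkn1a, which encodes the cell cycle inhibitor p21, read -0.90 and -0.96 and then 0.50 and 1.36 (1.86 ± 0.33, adjusted p = 0.124). Mdm2, the ligase that degrades p53, differed by 0.83 ± 0.21 and Phlda3, an AKT inhibitor, by 0.65 ± 0.18. Of 30 lysosomal genes 3 were higher by the count, Cd63, Ctsa (1.16 ± 0.24) and Ctsz (1.08 ± 0.34), and Glb1, β-galactosidase, differed by -0.65 ± 0.19.

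Amino acid metabolism was lower at 9 months in most members: 33 of 37 differences were below 0, 8 were lower by at least 1 with no overlap and 1 was higher, with a median of -0.64. Without 9 months replicate 2, the dimmest array, 1 was lower and 0 were higher, with a median of -0.40. Without 9 months replicate 1 there were 15 lower, with a median of -0.85. Gls2, the liver glutaminase, read 6.94 and 6.90 at 3 months and 5.68 and 5.62 at 9 months, 2.41-fold lower (adjusted p = 0.0927). Ass1, of the urea cycle, differed by -0.86 ± 0.21 and Agxt, which detoxifies glyoxylate, by -0.81 ± 0.20. Cth, which makes cysteine, read 5.83 and 5.32 and then 4.61 and 3.46. In these 4 genes the 2 times did not overlap. Drug metabolism genes had 20 of 25 differences below 0, 2 lower by the count and a median of -0.43. The median was -0.24 without 9 months replicate 2. The 2 were the carboxylesterase gene Ces2c (5.89 and 5.88, then 4.58 and 4.33) and Cyp2c55, a cytochrome P450 gene (-1.23 and -1.47, then -3.30 and -3.91). After Ces2c the smallest p-values of the list were those of Cyp2c38 (-0.97 ± 0.25) and Cyp2c50 (-0.71 ± 0.19), also cytochrome P450 genes. Of 23 genes of gluconeogenesis and insulin signalling Trib3 was the 1 higher and G6pc, glucose-6-phosphatase, the 1 lower by the count (-1.29 ± 0.46), and the glucose carrier gene Slc2a2 differed by -0.70 ± 0.28. Pck1 was 8.02 and 8.17 against 7.90 and 7.27.

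Genes that differ between the sexes gave 3 higher and 2 lower of 18 female-biased and 2 higher and 3 lower of 24 male-biased ones. Both medians turned sign when 9 months replicate 2 was left out, as did that of the clock genes (to 0.10). Cyp17a1, a steroid hydroxylase, read 0.33 and 1.81 and then 3.00 and 3.53 (2.20 ± 0.50, adjusted p = 0.176). Hao2, a hydroxyacid oxidase, read 1.51 and 1.74 and then 0.37 and -2.35. Egfr, the EGF receptor, was 1.18 ± 0.35 higher, Bcl6, a repressor of female-biased genes, read 1.31 and 3.90 and then 5.41 and 5.46, and Cyp2d9 differed by -1.14 ± 0.42. Of 22 clock genes and outputs 1 was higher by the count, Clock (1.06 ± 0.31), while Arntl, its partner, and Per2 overlapped. Tspan4 differed by 0.58 ± 0.22.

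Among acute-phase proteins 4 of 27 were higher and 1 lower by the count, and without 9 months replicate 1 these were 8 and 2. Lbp, which carries endotoxin, read 3.78 and 3.45 and then 4.54 and 4.47 (0.89 ± 0.18, adjusted p = 0.155), and Saa3 differed by 1.45 ± 0.58. The lower one was Hamp2, at 6.84 and 7.49 and then 4.96 and -3.08. Hamp, hepcidin, the hormone that blocks iron export, read 6.14 and 6.78 at 3 months and 6.54 and -2.03 at 9 months. In 9 months replicate 2 both hepcidin genes stood far below the other 3 mice, and Hjv, a co-receptor that switches hepcidin on, read 1.47 and 1.31 and then 0.59 and -0.63. That array also read highest for the red cell genes Slc4a1 (1.29 against -3.10 to -2.25) and Hbb-b2 (6.71 against 3.68 to 5.04) and for S100a9 and Marco. The part of those cells in the hepcidin values was not tested. Without that mouse the difference of Hamp was 0.0778, and without 9 months replicate 1 it was -8.49, past the threshold (adjusted p = 0.0101).

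Large complexes present in most cells had 0 genes past the count. The median was 0.25 for 42 cytosolic ribosomal protein genes (Rps27a 0.50 ± 0.19, Rpl13 0.60 ± 0.25), -0.16 for 37 respiratory chain genes (Uqcrfs1 -0.52 ± 0.19, Atp5a1 -0.40 ± 0.16) and -0.12 for 31 proteasome genes (Psmd14 -0.82 ± 0.28, Psmb7 -0.66 ± 0.25, Psmb4 0.83 ± 0.34). The ribosomal median was 0.55 without 9 months replicate 1 and 0.039 without 9 months replicate 2. Scaling to the array median in place of the 75th percentile moved the median of all features to -0.20. Small positive list medians can therefore turn sign with the scaling. That scaling lowered every difference by the same amount, so the respiratory chain (-0.35) and proteasome (-0.32) medians could only move further below 0. Of 16 fetal liver and tumour genes 3 were higher and 1 lower by the count. The lower one was Afp, α-fetoprotein, at 0.03 and 0.04 and then -0.90 and -1.93, and Gprc5b, an orphan receptor, differed by 2.30 ± 0.69.

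**Figure D3:**
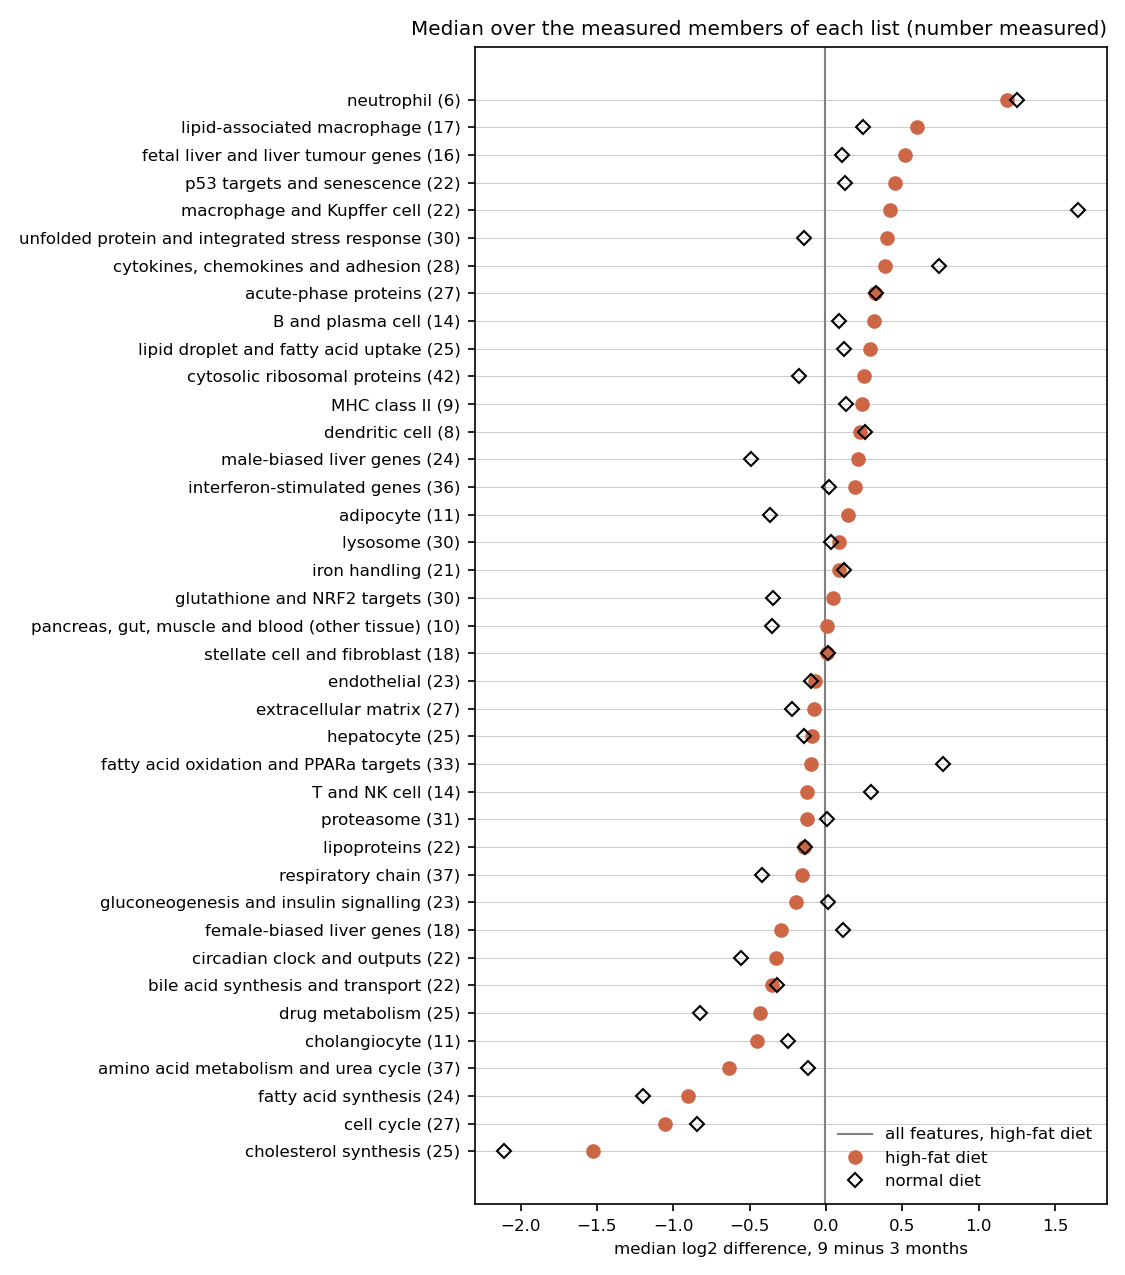
Median log2 difference, 9 minus 3 months, over the measured members of each gene list (number measured in brackets), filled circles for HFD and open diamonds for ND; the grey line is the median of all features on HFD. Cholesterol synthesis (-1.53), cell cycle (-1.06) and fatty acid synthesis (-0.90) lie lowest on HFD, and the neutrophil (1.18, over 6 genes) and lipid-associated macrophage (0.59) lists highest. On ND cholesterol synthesis lies at -2.11, cell cycle at -0.84 and fatty acid synthesis at -1.20. The neutrophil list lies at 1.25 on ND, no lower than on HFD, and the lipid-associated macrophage list at 0.24. The neutrophil median on HFD was 0.59 in the authors' value table and 0.53 without 9 months replicate 2.

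The 10 genes of each direction with the smallest p that were well above background on all 4 HFD arrays were Mt2, Tuba8, Mapt, Haus8, Gnai1, Mt1, Cd207, Cbr3, Rab38 and Trem2 (higher) and Mcm6, Mcm5, Mid1ip1, Tstd3, Srebf1, Mcm3, Nlrx1, Ppp6r1, Timeless and Atg3 (lower). None passed an adjusted p of 0.05, and their adjusted p-values ran from 0.0555 to 0.0733. Mcm6, Mcm5, Mt2 and Srebf1 each passed under 6 of 12 alternative settings, not counting the fits that left out 1 array. Trem2 passed under 0 of these 12 and Ppp6r1 under 2. Cd207, Cbr3, Rab38, Timeless and Atg3 passed under 3 each, and the others under 4 or 5. Tuba8, an α-tubulin, read -1.29 and -1.80 and then 1.57 and 0.91, 6.91-fold higher. Haus8, a subunit of the augmin complex of the spindle, read 2.40 and 1.89 and then 4.14 and 4.55, 4.60-fold higher. Gnai1, an inhibitory G protein subunit, differed by 2.19 ± 0.24, Cbr3, a carbonyl reductase, by 2.07 ± 0.25 and Rab38, a small GTPase of lysosome-related organelles, by 2.18 ± 0.28. Mapt, the microtubule protein tau, differed by 1.80 ± 0.19, but its 2 other probes gave a mean difference of -0.00. On the lower side Tstd3, a sulfurtransferase-like gene, differed by -1.72 ± 0.18, Ppp6r1, a phosphatase 6 regulator, by -1.94 ± 0.23 and Atg3, an enzyme of autophagosome formation, by -1.40 ± 0.17. Nlrx1, a mitochondrial regulator of innate signalling, differed by -1.47 ± 0.17, but its other probe differed by 1.01.

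Some genes were well above background on both arrays of 1 time and on neither of the other, so their folds are bounds. There were 161 such features at 9 months only, 73 of them with a gene symbol, and 169 at 3 months only, 87 with one. Among features with a symbol, the largest bounds at 9 months were for Gpnmb, for Vsig8, an immunoglobulin-domain protein (at least 7.96-fold higher), Dusp8, a phosphatase of MAP kinases (at least 6.37-fold), Dppa5a (at least 5.77-fold) and Mab21l3 (at least 4.67-fold). Vsig8 read -0.60 and -0.57 at 9 months, with close mice, while Dppa5a read -3.61 and 1.51. At 3 months they were for Fignl1, an ATPase of recombination repair (-0.50 and -0.81; at least 8.58-fold lower at 9 months), Mapk8, which encodes JNK1 (at least 5.84-fold; 3-month arrays at -2.68 and 0.61), the pheromone receptor genes Vmn1r204 (at least 5.49-fold) and Vmn1r181 (at least 5.18-fold), and Kif11, the kinesin that separates spindle poles (at least 4.90-fold; 3-month arrays at -0.09 and -3.06). In Mapk8 3 months replicate 2 alone was high, and its 2 other probes gave a mean difference of -1.16. In Kif11 3 months replicate 1 alone was high. The other probe of Fignl1 differed by -3.86, in the same direction.

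The same interval on ND spans the same feeding time and age without the high-fat diet. On the ND slide too, row 1 held the 3-month arrays and row 2 the 9-month arrays. Row and time therefore cannot be told apart on ND either, and a row effect common to both slides was not tested. On ND 89 features were higher (0.441%) and 120 lower (0.595%) at 9 months, 1.04% of all, against the 2 on HFD. The numbers at an unadjusted limma p under 0.05 were close, 3198 on ND and 3120 on HFD. Under quantile normalization 78 features passed as higher and 85 as lower on ND, against 23 and 38 on HFD. Across all features the differences of the 2 diets had a Pearson r of 0.41, and 63.9% had the same sign, where genes are not independent replicates and the 2 comparisons share no array. Of the 132 features under an adjusted p of 0.1 on HFD, 110 had the same sign on ND and 16 passed 0.05 there. Diet and slide cannot be told apart, since each diet has a slide of its own. On ND Mt2 went from 1.11 and 1.17 to 8.71 and 8.01 (7.22 ± 0.30, adjusted p = 0.00236), and Srebf1 (-4.37 ± 0.27) and Mid1ip1 (-2.91 ± 0.19) fell (adjusted p = 0.00697 for both). Mcm5 fell on ND too (-2.20 ± 0.27, adjusted p = 0.031). Trem2 passed on neither diet, with an adjusted p of 0.0733 on HFD. On ND it read -2.94 and -2.87 and then -1.69 and -2.57 (0.77 ± 0.34, adjusted p = 0.338). Its time effect was 1.79 ± 0.48 higher on HFD than on ND, a difference that did not pass in limma either (adjusted p = 0.494).

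**Figure D4:**
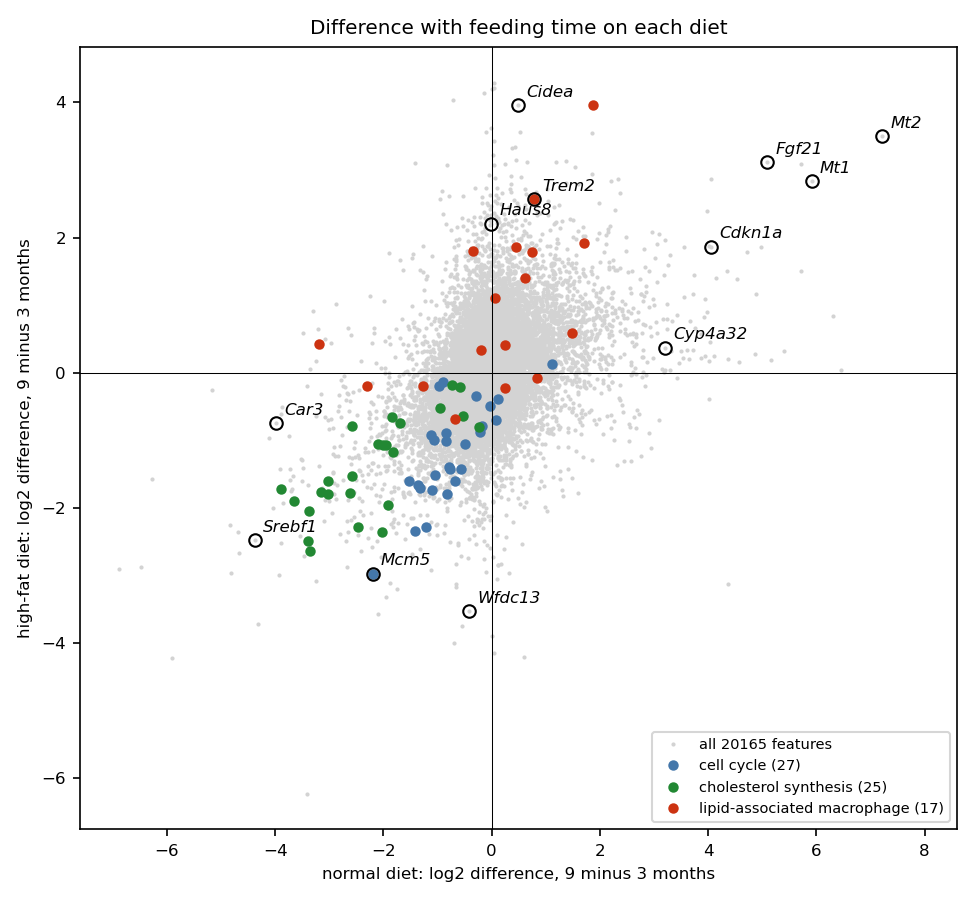
Log2 difference between 9 and 3 months on ND (horizontal) and HFD (vertical) for all 20165 features in grey, with 3 gene lists in colour and 12 genes ringed and named. Mt2 lies at 7.22 on ND and 3.50 on HFD, Trem2 at 0.77 and 2.56, and Car3 at -3.98 and -0.74.

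Whether the time effect itself differed between the diets was tested as an interaction, and 0 of 20165 features passed (0% at an adjusted p of 0.05 in limma), while 1537 (7.62%) reached an unadjusted p under 0.05. The smallest adjusted p was 0.146, for Car3, a carbonic anhydrase abundant in liver, at 9.27 and 9.21 and then 8.57 and 8.42 on HFD. Its time effect was 3.24 ± 0.24 higher on HFD than on ND, where it fell by 3.98. Among genes with a symbol that were well above background on all 8 arrays, those with the next smallest p and a positive interaction were Dbp, a clock output gene (2.50 ± 0.33), Zfp982, Haus8 (2.21 ± 0.34), Pparg (1.50 ± 0.23), Rab38, Mapt, Trib3 (1.76 ± 0.30), Cyp2c70 and Foxq1. In the other direction stood Cyp4a32 (-2.83 ± 0.30), Rab30, Mt2 (-3.72 ± 0.42), Acot5, Ehhadh, a peroxisomal β-oxidation enzyme (-2.15 ± 0.25), Cyp4a31, Cyp4a10, Acot1, Mt1 (-3.08 ± 0.47) and Sp4. Their adjusted p-values ran from 0.146 to 0.33. Of these negative ones Cyp4a32, Cyp4a10, Cyp4a31, Acot1, Acot5 and Ehhadh handle fatty acids, and on HFD their differences lay between -0.10 (Ehhadh) and 0.75 (Acot1). On ND these 6 genes differed by 2.05 to 3.47.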

How the data were processed

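Total RNA of liver was labelled with Cy3 and hybridised to 1-colour Agilent arrays, 1 per mouse, per the labels' protocols. The deposited array files hold intensity values from Agilent Feature Extraction 10.7.1.1, per the submitters' processing notes, background-subtracted and detrended but not scaled between arrays, per the file headers; the raw median signals and local backgrounds are intensity values too, and the deposited flags are other values, 0 or 1 per spot. The authors' value table holds log2 values whose rank on each array equals that of the median signal (Spearman's rho of 1) and whose column medians are all 7.14; its scale and normalization are stated nowhere in the sources used here.

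Control spots (3671 of 62976 per array) and outlier spots were left out. The processed signal was put on a log2 scale and the array's 75th percentile taken off, with no pseudocount. Probes that exceeded background clearly in both mice of any group were kept, and 1 probe per gene, the one of highest mean, was used (20165 features). Names came from RefSeq accessions (GRCm38.p6): 26056 of 55681 probes matched 19752 symbols, and 12885 features have a symbol. Array coordinates are on mm9 and none is printed. Close relatives such as the Cyp4a, Mt1 and Mt2 genes were not checked for cross-hybridisation.

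limma 3.58.1 (R 4.3.3) fitted 4 group means to 8 arrays, with 4 residual and 2.33 prior degrees of freedom. P-values had Benjamini-Hochberg adjustment and a threshold of 0.05. A run on simulated data gave each feature the same spread on all 8 arrays. It therefore says nothing on the unequal spread of the real arrays. Per the labels the arrays hold separate mice. The p-values measure the spread between mice and arrays together; their precision is limited by how few arrays there are. The members, gene lists and tests were chosen with earlier results of these data known. Named genes are the 10 with the smallest p per direction (with a proper symbol, well above background on all HFD arrays, arrays not overlapping) since no such gene passed, the 3 members of each list with the smallest p, panel genes, 5 bounds per direction, and 10 interaction genes per direction. Mouse numbers repeat across groups without marking shared animals: deviations of same-numbered arrays correlated at 0.063 between the HFD groups, so no pairing was used. Alternatives were other normalizations, filters, probe rules, moderation, weights and left-out arrays. The untested count of separated arrays was added after seeing the data. Some genes are not reported here. Promoters came from RefSeq. Python 3.11.15, pandas 2.3.3 and matplotlib 3.10.9 drew the figures.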

Additional observations from a re-analysis of the deposited data

How the results depend on the processing

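Numbers past the threshold on HFD depended on the processing, and the cause was not tested. In place of 1 higher and 1 lower, there were 23 and 38 under quantile normalization, 7 and 18 with scaling to the array median, 22 and 45 under normexp, 22 and 48 in the authors' value table, 6 and 10 for probes well above background on all 8 arrays, 6 and 13 with trend and robust moderation, and 50 and 82 at an adjusted p under 0.1. None passed without the filter on dim probes (0 and 0 of 37084 tested), with array weights (0 and 0) or in a fit of the HFD arrays alone (0 and 0), and 0 were higher with a floor on dim values. These 0 counts stood beside 2822, 1782 and 1718 features at an unadjusted p under 0.05. With the replicate block 0 higher and 0 lower passed (3148 at an unadjusted p under 0.05). Leaving out 1 array in turn gave 0 to 746 higher and 0 to 1187 lower, the highest without HFD 9 months replicate 1 and 0 in both directions without any 1 of the ND arrays. In those fits the lone array of a group was assumed to vary like the other groups. Wfdc13 lost its call in 6 of the 8 fits that leave out 1 array, and XM_001476221 in 7 of 8. For the interaction, 1 lower feature passed under quantile normalization and 1 higher, Car3, passed for probes above background on all 8 arrays and with trend and robust moderation, and leaving out 1 array gave 0 to 1 higher and 0 to 2 lower.

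These signs turned among named genes that did not pass the threshold. Pparg was 0.0523 under quantile normalization, 0.0493 under normexp, 0.0224 in the authors' value table and -0.1088 to 0.0610 with 1 array left out. Scaling to the array median gave -0.0893 for Mogat1 and -0.15 for Cxcl13. With 1 array left out the ranges were -0.12 to 0.80 for H2-Oa, -1.74 to 0.0603 for Scd1, -0.93 to 0.20 for Pklr, -0.0386 to 0.61 for Cd36, -0.88 to 1.08 for Mogat1, -2.24 to 0.22 for Cyp2b13, -1.47 to 1.56 for Cxcl13, -1.69 to 0.23 for Cyp7a1, -8.49 to 0.0778 for Hamp, -0.0276 to 0.42 for Arntl, -1.48 to 0.19 for Per2 and -1.36 to 0.66 for Igfbp1.

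Duration, age and slide row cannot be told apart, the pairs hold 2 mice, and signal over background limits genes near the background.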
